A study of Drosophila melanogaster with 4 samples.

Results

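The 8 Hox genes of Drosophila melanogaster lie in a pair of gene complexes on chromosome arm 3R. The genes lab, pb, Dfd, Scr and Antp belong to the Antennapedia complex, and Ubx, abd-A and Abd-B belong to the bithorax complex. They were chosen by name, as 8 of 17872 genes in a RefSeq gene table, and located by intervals in the coordinates of FlyBase release 5, the release the data use. The genes, their intervals and the comparisons were chosen with earlier results of these data known. The Antennapedia complex was taken as 3R 2.48 to 2.83 Mb and the bithorax complex as 3R 12.48 to 12.80 Mb. Within the latter, Ubx was taken as 12482000 to 12560500, abd-A as 12632500 to 12656000 and Abd-B as 12752500 to 12798000. No release 5 annotation was used here, so none of these intervals was checked against one. The single genes of the Antennapedia complex had no intervals of their own and were described through the interval taken to hold all 5.

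The mark measured was acetylation of lysine 8 of histone H4 (H4K8ac), which is known from active chromatin. It was measured by ChIP-seq, that is, immunoprecipitation of chromatin followed by sequencing. The material was head nuclei of mixed adult flies of the wild-type strain Oregon-R, and no treatment is named. The series holds 2 ChIP libraries and 2 input libraries, and each input served as the control of 1 ChIP library. The values are 3 deposited lists of enriched regions, called clusters here, made up of 1 list for each ChIP replicate and the authors' combined replicate set. Separate fly collections are not named for the replicates in the labels, so their spread may be technical. Heads were collected by sieving, so the chromatin comes from all cell types of the head together, and acetylation in a few cells cannot be told apart from weak acetylation in many. No markers of cell types were measured, and the age and sex of the flies are not in the labels.

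Hox genes encode homeodomain transcription factors that give the segments of the body their identity along the axis from head to tail. In each complex the order of the genes largely follows the order of the segments in which they act. Their active and silent states are set in the embryo and later kept by the trithorax and Polycomb groups of chromatin regulators, which act across large parts of both complexes. The genes lab, Dfd and pb act at the head end, where Dfd patterns the mandibular and maxillary segments and pb shapes the adult mouthparts. Scr acts in the labial segment and the prothorax, and Antp in the thorax, where it directs leg identity. Ubx specifies the metathorax with its halteres, abd-A the anterior and middle abdomen, and Abd-B the posterior abdomen and genitalia.

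No H4K8ac cluster touched either Hox complex in any of the 3 lists. The Antennapedia complex interval held 0 clusters in replicate 1, 0 in replicate 2 and 0 for the combined set, so its coverage was 0% ± 0 (SD, n = 2). The bithorax complex interval likewise held 0 clusters in each list, with coverage of 0% ± 0 (SD, n = 2). By the intervals used, all 8 Hox genes were therefore without a called region of H4K8ac. This rests on 2 empty intervals and not on 8 separate observations. Empty windows of single-gene length were not rare on 3R, at 7.55% for the length of Ubx, 15.0% for Abd-B and 25.5% for abd-A in replicate 1. At the mean density of clusters along 3R, an interval as long as the Antennapedia complex would hold 25.7 clusters in replicate 1, 26.3 in replicate 2 and 31.9 for the combined set. For the length of the bithorax complex these numbers are 23.5, 24.0 and 29.2. Clusters covered 30.1% of 3R in replicate 1, 28.6% in replicate 2 and 44.1% for the combined set. The only depleted region of the combined set, 1 in all, lay outside both complexes.

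An absent cluster is a statement on calls. The shortest cluster was 1301 bp long in each replicate and 1001 bp in the combined set, so a shorter stretch of acetylation would not be listed. The lists hold no read counts, so depth was unknown, and neither the input reads nor the mappability inside the complexes could be examined. The series has 1 mark, 1 tissue and 1 genotype, so there were no groups to test, and the comparisons below are descriptions given with no p-value.

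**Figure D1:**
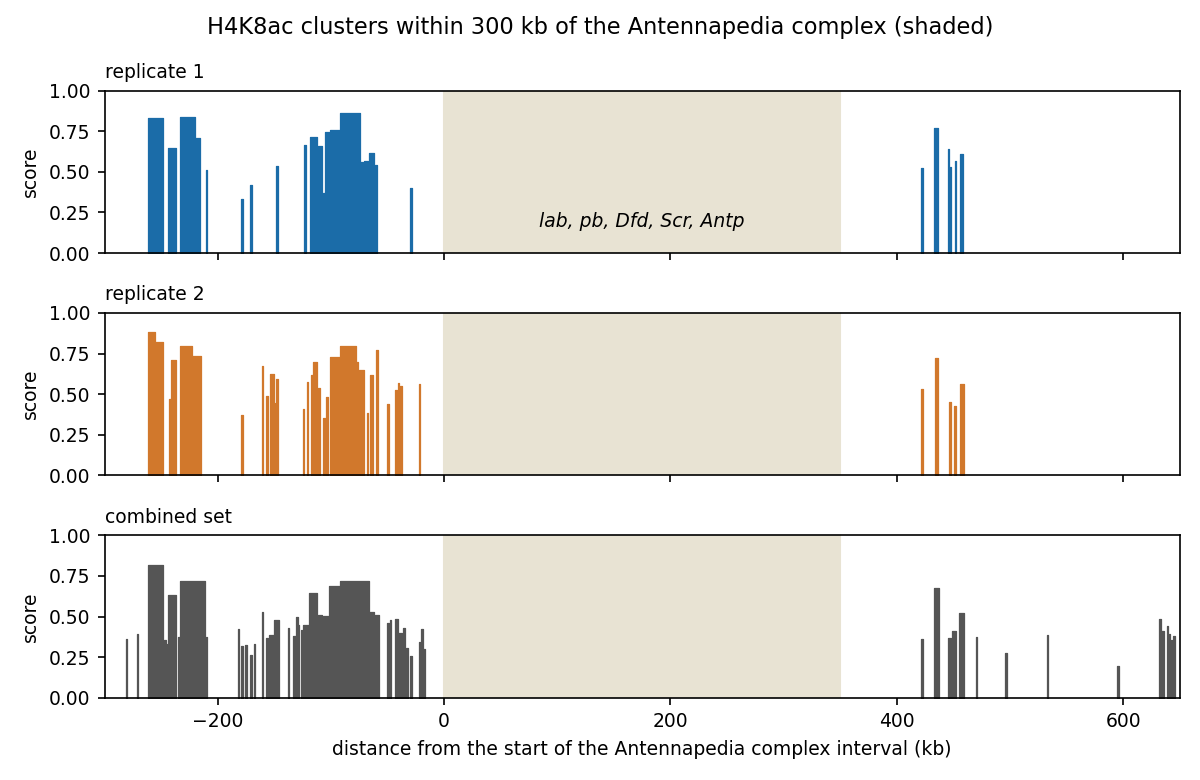
Clusters within 300 kb of the Antennapedia complex in replicate 1, replicate 2 and the combined set. The x axis is the distance from the start of the complex interval in kb, and each filled bar is 1 cluster with its deposited score as height. The shaded interval, taken to hold the 5 Hox genes, holds no bar in any list.

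**Figure D2:**
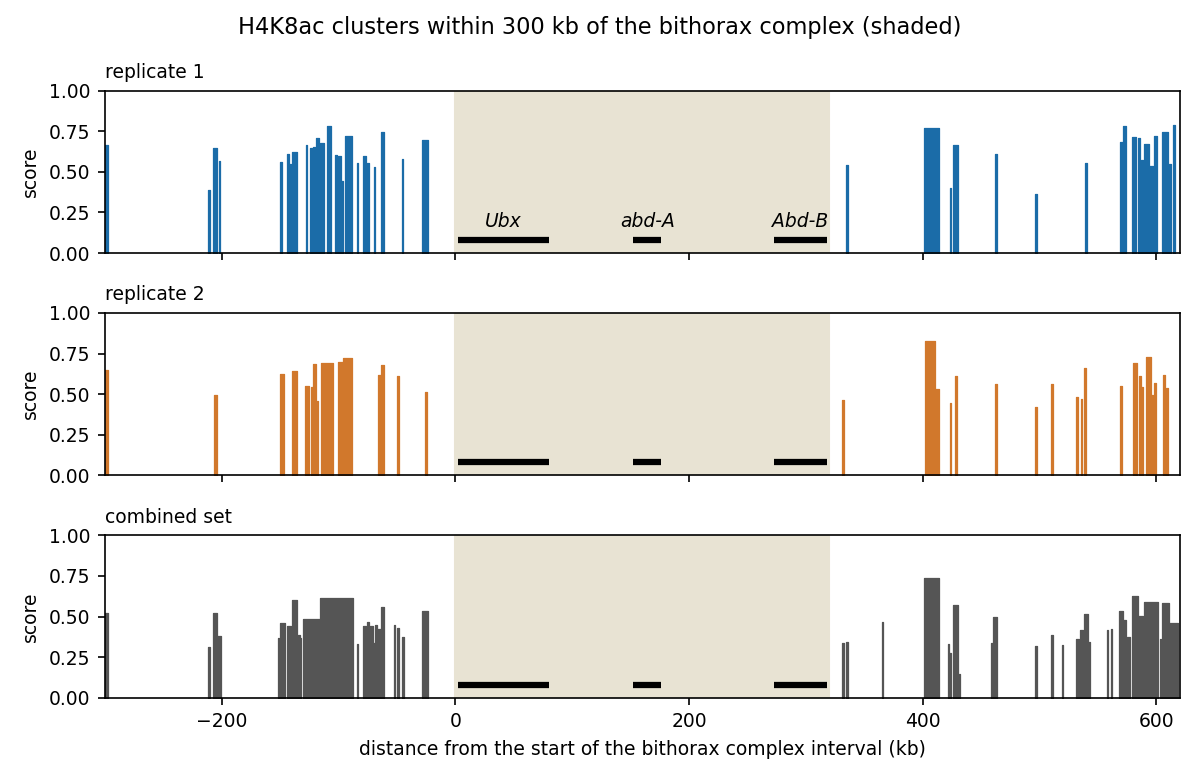
Clusters within 300 kb of the bithorax complex, drawn in the same way, with the Ubx, abd-A and Abd-B intervals as black lines. The shaded interval holds no cluster in any of the 3 lists, and clusters begin again on both sides.

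The empty state of each complex was set against all other intervals of the same size on 3R, laid every 10 kb and leaving out those that touch either complex. Of 2619 windows the length of the Antennapedia complex, 0.0% were free of clusters in replicate 1, 0.0% in replicate 2 and 0.0% for the combined set. The median window was covered to 29.4% in replicate 1, 28.0% in replicate 2 and 45.7% for the combined set. The least covered window had 1.24% in replicate 1, at 3R 20600001 to 20950001, and 1.08% in replicate 2, at 3R 20640001 to 20990001. In the combined set the lowest was 6.82%. Of the windows, 1.72% in replicate 1 and 1.83% in replicate 2 were covered to less than 5%, and none of the 2619 was in the combined set. The Antennapedia complex therefore lay below every other window of its size in each list.

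The same held for the bithorax complex. Of 2628 windows of its length, 0.0% were free of clusters in each of the 3 lists. Median coverage was 29.9% in replicate 1, 28.5% in replicate 2 and 45.6% for the combined set, and the lowest values were 1.36%, 1.18% and 6.43%. Neighbouring windows overlap and are not independent, so these ranks describe the arm and carry no p-value. The windows of both sizes are also longer than any other stretch between clusters on 3R, as given below. The share of empty windows thus follows from the lengths of those stretches and is no separate result.

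**Figure D3:**
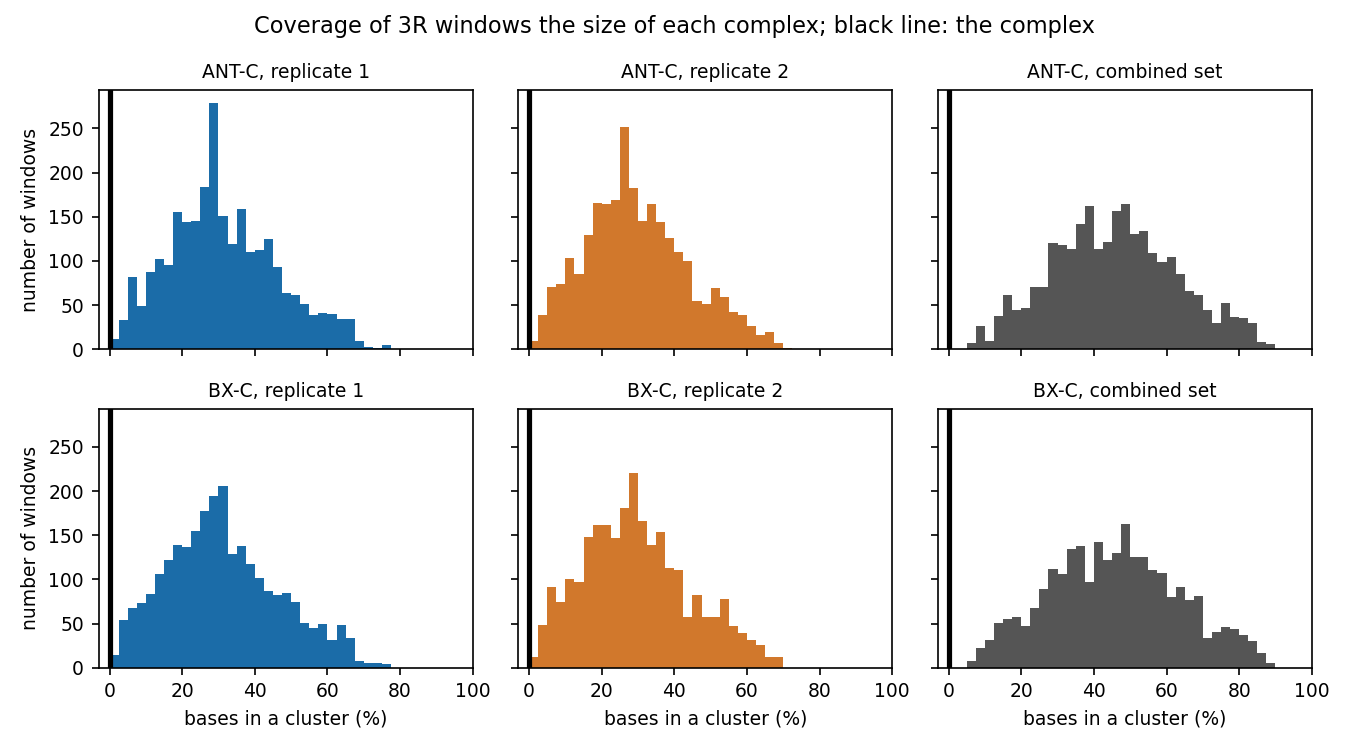
Percent of bases in a cluster for 3R windows as long as each complex, with the number of windows on the y axis, by complex (rows) and list (columns). The black line marks the complex itself, at 0% in all 6 panels, while the medians of the other windows lie between 28.0% and 45.7%.

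For single genes the background was higher, since more of the short windows were free of clusters. The Ubx interval of 78.5 kb held 0 clusters in each list, and 7.55% of 2702 windows of this length were also free of clusters in replicate 1. The share was 8.36% in replicate 2 and 2.55% for the combined set. Ubx thus had company among windows of its size, though few of them were empty in the combined set. The Abd-B interval of 45.5 kb held 0 clusters as well, a state shared by 15.0% of 2711 windows in replicate 1, 16.0% in replicate 2 and 7.19% for the combined set. The shortest interval, the 23.5 kb of abd-A, was also empty, and so were 25.5% of 2718 windows in replicate 1, 27.3% in replicate 2 and 13.8% for the combined set. Taken alone, an empty abd-A interval is therefore a common state on this arm, whereas no other window of the full length of a complex was empty.

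Within the bithorax complex the DNA between the genes, known for its regulatory elements, held no cluster either. The stretch from Ubx to abd-A, at 3R 12560501 to 12632499, held 0 clusters in each list. Of 2703 windows of its length, 8.62% were empty in replicate 1, 9.62% in replicate 2 and 3.18% for the combined set. The stretch from abd-A to Abd-B, at 3R 12656001 to 12752499, also held 0, as did 5.04% of 2696 windows in replicate 1, 6.08% in replicate 2 and 1.3% for the combined set. Empty windows of these lengths were thus found elsewhere on the arm. This background was added after the lists were examined. The gene abd-A, in the middle, was the farthest from a cluster on its nearer side. Its nearest cluster to the left ended 176.3 kb ± 0.293 away and its nearest to the right began 156.6 kb ± 2.52 away (SD, n = 2). Ubx had a cluster 25.8 kb ± 0.293 to its left and none for 252.1 kb ± 2.52 to its right (SD, n = 2). Abd-B was the reverse, with 296.3 kb ± 0.293 to the left and 14.6 kb ± 2.52 to the right (SD, n = 2). No cluster lies inside the complex, so the same left and right clusters served all of these genes. The distances thus restate the positions of the genes within 1 empty stretch and are no separate result for each.

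Other genes share the cluster-free complexes with the Hox genes. By the order of genes in the RefSeq table, which uses Release 6 of the genome and served for names and order alone, 45 genes lie from lab to Antp. Of these 20 are protein-coding and 15 of them are not Hox genes. They include bcd, whose protein patterns the anterior of the embryo, zen and zen2, which are homeobox genes derived from a Hox gene, the pair-rule gene ftz, and Ama, which encodes a secreted immunoglobulin-domain protein. Another 8 are the cuticle protein genes of the Ccp84A group with Edg84A, which lie between lab and pb. From Ubx to Abd-B the table has 17 genes, of which 6 are protein-coding and 3 are not Hox genes, among them the sugar transporter gene Glut3. The long non-coding RNA bxd and the microRNA genes mir-iab-4 and mir-iab-8 lie in the same complex, and mir-10 lies between Dfd and Scr. These genes have no release 5 intervals of their own here, so their 0 clusters follow from the empty complexes. Short windows of 3R are often empty, as the values for the abd-A length show, and nothing is read from this for any single gene.

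The cluster-free stretches reached beyond the complexes on both sides. Around the Antennapedia complex the stretch between neighbouring clusters ran from 3R 2451414 to 2901627 in replicate 1, or 450.2 kb. In replicate 2 it ran from 2458894 to 2901552, or 442.7 kb, and in the combined set from 2462905 to 2901467, or 438.6 kb. The complex took up 77.7%, 79.1% and 79.8% of these stretches. Around the bithorax complex the stretch measured 358.1 kb in replicate 1, from 3R 12456368 to 12814431. It measured 354.9 kb in replicate 2, from 12455954 to 12810865, and 354.4 kb in the combined set, from 12456432 to 12810830. The complex took up 89.4%, 90.2% and 90.3% of these. Over the replicates, the stretches measured 446.4 kb ± 5.34 and 356.5 kb ± 2.23 (SD, n = 2).

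On 3R these were the longest and the second longest of 2046 stretches between clusters in replicate 1, of 2091 in replicate 2 and of 2544 for the combined set. The median stretch measured 1990 bp in replicate 1, 1944 bp in replicate 2 and 1287 bp for the combined set. The 95th percentile was 38.9 kb in replicate 1, 39.8 kb in replicate 2 and 25.3 kb for the combined set. The third longest on the arm measured 279.5 kb in replicate 1, 278.6 kb in replicate 2 and 154.1 kb for the combined set. The stretch with the Antennapedia complex was 1.61, 1.59 and 2.85 times as long as that in these lists. The stretch with the bithorax complex was 1.28, 1.27 and 2.30 times as long. The 2 Hox stretches thus stood farthest from the rest of the arm in the combined set, the list with the most clusters.

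Among the 5 large arms together the Hox stretches were near the top but not alone there. The stretch with the Antennapedia complex ranked 3 of 8127 in replicate 1, 2 of 8111 in replicate 2 and 1 of 10591 in the combined set. The stretch with the bithorax complex ranked 6, 8 and 5. The longest in replicate 1 was 703 kb at 2R 979596 to 1682576, and the longest in replicate 2 was 481.4 kb at 2R 1147933 to 1629290. A stretch at X 21484143 to 21995341 measured 511.2 kb in replicate 1. Stretches at arm ends, beyond the last cluster, were not counted.

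**Figure D4:**
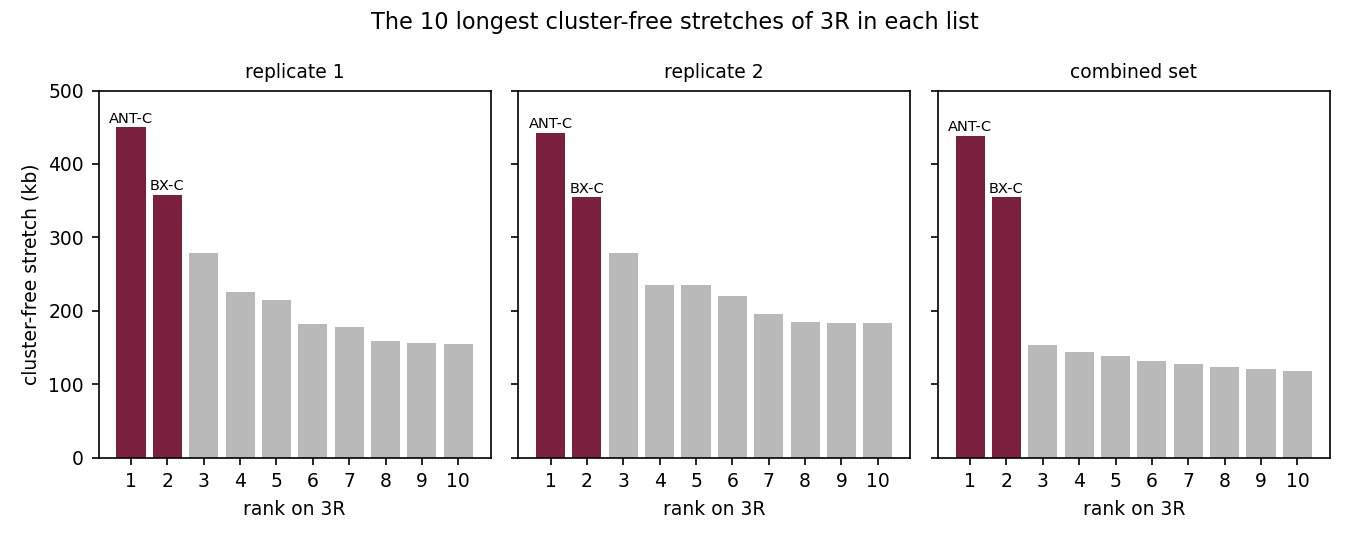
Length in kb of the 10 longest cluster-free stretches of 3R in replicate 1, replicate 2 and the combined set, by rank. Dark bars hold the Antennapedia complex (ANT-C, 438.6 to 450.2 kb) and the bithorax complex (BX-C, 354.4 to 358.1 kb), and grey bars are the other stretches, none longer than 279.5 kb.

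The combined set calls more of the arm than either replicate, and this put clusters into most of the long stretches of the replicates. On 3R, 32 stretches of replicate 1 measured at least 100 kb, the 2 Hox stretches among them. In 28 of the other 30 at least 1 combined cluster lay wholly inside, and combined clusters covered a median of 4.94% of their bases, with a range from 0.165% to 14.3%. Wholly inside the Hox stretches of replicate 1 lay 3 combined clusters by the Antennapedia complex and 1 by the bithorax complex. In replicate 2 these numbers were 2 and 0, and 29 of its 30 other stretches held at least 1. The replicate 1 stretch with the Antennapedia complex was covered to 0.875% by combined clusters and that with the bithorax complex to 0.535%. Of the other 30, 2 were at or below the value of the Antennapedia complex and 1 was at or below that of the bithorax complex. In replicate 2, 30 other stretches had a median of 4.75% and a lowest value of 1.15%, against 0.542% and 0.145% for the Hox stretches. The combined clusters in the Hox stretches lay outside the complexes, at their margins. The complexes fill most of these stretches and hold no combined cluster, so only the margins could be covered. Low values were thus built in for the Hox stretches, while the other 30 were chosen without that condition. The combined set stands for the same libraries, so this is no independent check.

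The edges of the empty stretches were placed alike in the lists at 2 of the 4 ends. To the right of the Antennapedia complex the nearest cluster began 71.6 kb away in each replicate and 71.5 kb away in the combined set. It lay at 3R 2901628 to 2903027 with a score of 0.53 in replicate 1 and at 2901553 to 2903225 with a score of 0.53 in replicate 2. The score is the authors' own value for each cluster, and its scale is not stated in the sources used here. To the left of the bithorax complex the nearest cluster ended 23.6 kb away in replicate 1, 24.0 kb in replicate 2 and 23.6 kb for the combined set. It spanned 3R 12451792 to 12456367 with a score of 0.70 in replicate 1 and 12454170 to 12455953 with a score of 0.52 in replicate 2. These pairs overlapped between the replicates, so the same cluster marked the end in each.

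At the other 2 ends each replicate had a nearest cluster that the other lacked. To the left of the Antennapedia complex it was 3R 2449984 to 2451413 in replicate 1, 28.6 kb away with a score of 0.40. In replicate 2 it was 3R 2457382 to 2458893, 21.1 kb away with a score of 0.57, and the combined set placed a further cluster 17.1 kb away. To the right of the bithorax complex it was 3R 12814432 to 12815876 in replicate 1, 14.4 kb away with a score of 0.54. In replicate 2 it was 3R 12810866 to 12812668, 10.9 kb away with a score of 0.47. With clusters seen in a single replicate left out, a step added after the lists were examined, these ends moved outward. The stretch with the Antennapedia complex then measured 480.7 kb in replicate 1 and 479.8 kb in replicate 2, and that with the bithorax complex 425.0 kb and 425.7 kb. They were still the longest and the second longest on 3R.

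The clusters that bordered the Hox stretches mostly had low scores for this arm. Their median score was 0.53 in replicate 1 and 0.52 in replicate 2, against 0.64 and 0.63 for all clusters of 3R. The exception was the replicate 1 cluster left of the bithorax complex, which scored above 64.3% of the 3R clusters of its list. The others scored above 2.34% to 29.7% of the clusters of their list. Clusters at the borders of the other 30 long stretches had medians of 0.58 and 0.57, also below those of the arm, so low-scoring borders were not seen at the Hox stretches alone.

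The left and right surroundings of the Antennapedia complex were unlike, by more than the spread between the replicates. The 300 kb to its left were covered to 33.9% ± 1.30 and the 300 kb to its right to 4.08% ± 0.244 (SD, n = 2). In replicate 1 the left side held 20 clusters and the right side 6, and in replicate 2 the numbers were 31 and 5. The combined set covered 52.8% of the left side and 10.7% of the right. The densest bin on the left lay 50 to 100 kb from the complex, at 74.8% in replicate 1 and 68.7% in replicate 2. It held a cluster at 3R 2387740 to 2405290 in replicate 1, which was 17551 bp long and scored 0.86. The 50 kb next to the complex were covered to 2.86% in replicate 1 and 14.6% in replicate 2, but to 32.4% in the combined set. The bin at 150 to 200 kb was about as low, at 5.79% in replicate 1, 16.3% in replicate 2 and 31.0% for the combined set.

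To the right of the Antennapedia complex the 50 kb next to it held no cluster in any list. In the bins from 50 to 150 kb, coverage was 14.4% ± 3.20 and then 10.0% ± 1.74 (SD, n = 2). From 150 to 300 kb neither replicate had a cluster, and the combined set covered 2.27%, 3.74% and 16.7% of the 3 bins. That second empty stretch was the third longest of 3R in both replicates, at 3R 2938664 to 3218114 in replicate 1. It is thus separated from the stretch with the Antennapedia complex by a group of 6 clusters in replicate 1 and of 5 in replicate 2.

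Around the bithorax complex the sides were more alike. The 300 kb to the left were covered to 18.6% ± 2.44 and the 300 kb to the right to 17.0% ± 1.29 (SD, n = 2). Both values lie under the 30.1% and 28.6% of the whole arm. The bins next to this complex were low, at 9.17% ± 4.04 on the left and 3.25% ± 0.506 on the right (SD, n = 2). On the left, coverage was 35.5% ± 4.42 at 50 to 100 kb and 53.8% ± 0.216 at 100 to 150 kb (SD, n = 2). Farther left the means were 0.695% ± 0.0127, 8.23% ± 6.05 and 4.22% ± 0.0622 in the bins from 150 to 300 kb (SD, n = 2). The bin at 200 to 250 kb was not clearly lower than the bin next to the complex. It had 12.5% against 12.0% in replicate 1, 3.95% against 6.31% in replicate 2 and 16.6% against 16.2% for the combined set. On the right it was 24.6% ± 1.51 (SD, n = 2) at 50 to 100 kb, where replicate 1 had a cluster of 12830 bp with a score of 0.77 at 3R 12881341 to 12894170. The next bins on the right had means of 13.1%, 4.81% and 8.79%, so low bins were not found next to the complex alone. At 250 to 300 kb on the right the replicates were farther apart, with 55.7% and 39.2%.

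**Figure D5:**
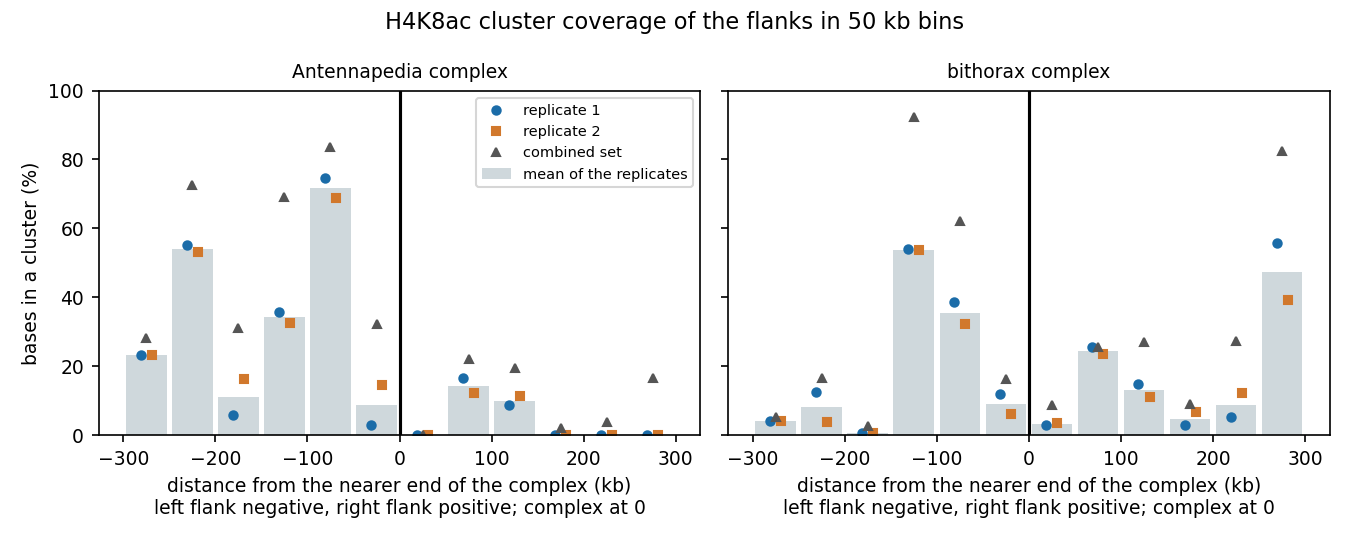
Percent of bases in a cluster in 50 kb bins on either side of each complex, with distance from the nearer end of the complex in kb on the x axis. Bars are means of the replicates, circles and squares the replicates and triangles the combined set, and the left side of the Antennapedia complex reaches 71.7% while its right side stays at or below 14.4% in the replicate means.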

How the data were processed

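Per the file headers, the deposited lists hold enriched regions in FlyBase release 5 coordinates, each with 1 score. The score is the authors' value, with a scale not stated, and it was used as deposited. Per the submitters' processing notes, Bowtie 0.12.7 was among the tools. For the calling of regions, its threshold and the merging of replicates, the method is not given in the sources used here. Groups and replicate numbers came from sample titles. The Hox genes, their intervals and the comparisons were chosen with earlier results of these data known.

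Coverage is the percent of an interval's bases in a cluster, and an overlap needed 1 bp. Windows on 3R (27905053 bp) started every 10 kb. Cluster-free stretches lie between neighbouring clusters. The naming rule covered the 8 Hox genes, bcd, zen, zen2, ftz, Ama and the nearest clusters, and anything else named was picked after it was seen. The interval arithmetic was tested on simulated data. Python 3.11.15, numpy 2.4.6, pandas 2.3.3 and matplotlib 3.10.9 were used. Depth was unknown, so no counting error is given. The alternatives kept the upper 50% by score, merged clusters under 500 bp apart, left out clusters under 2000 bp, used windows end to end, flanks of 100 kb, the combined set and each replicate alone.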

Additional observations from a re-analysis of the deposited data

How the results depend on the processing

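Coverage of both complexes and of the Ubx, abd-A and Abd-B intervals was 0% under all 30 alternative values. Only the 5 from the combined set could have differed, since the others remove clusters, join close ones or keep 1 of the replicate lists, which are empty there. With the upper 50% of clusters by score, 0.878% of windows the length of the Antennapedia complex and 1.10% of those the length of the bithorax complex were also empty, and the mean ranks of their stretches on 3R were 1.5 and 3. Fewer clusters are kept there by construction. Without clusters under 2000 bp, 0.0381% of the bithorax-sized windows were empty (mean of the replicates). With flanks of 100 kb, coverage was 40.2% left and 7.22% right of the Antennapedia complex, and 22.4% and 13.9% beside the bithorax complex. The shares of windows stayed at 0% and the ranks at 1 and 2 under the other alternatives, ranks having been added after the data were seen. Of these, only the combined set and the removal of clusters under 2000 bp could have changed them. Joining close clusters leaves long stretches as they are, and each replicate alone repeats values already given. Windows end to end, like those laid every 10 kb, are longer than any other stretch between clusters on 3R in the full lists, so none could be empty. No paired analysis was possible because the input libraries have no list of their own here. Without read counts, an empty interval cannot be told apart from acetylation under the authors' threshold.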
